A study of Mus musculus with 57 samples.

Results

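The 10 genes described here encode the main transporters that move bile acids and drug conjugates through the hepatocyte. They were chosen by symbol and role, with earlier results of these data known, and are 10 of the 54307 genes in the deposited table. Of these, 4 carry out basolateral uptake from blood (Slc10a1, Slco1a1, Slco1a4, Slco1b2), 3 export into the bile canaliculus (Abcb11, Abcb4, Abcc2) and 3 return solutes from the hepatocyte to blood (Abcc3, Abcc4, Slc51b). Bulk RNA-seq of the liver covered 57 wild-type male C57BL/6JJcl mice, used at 6 weeks after 1 week of acclimatization, fasted for 12 h and killed 24 h after the compound or vehicle. Compounds given by gavage were acetaminophen (APAP, 6 mice), thioacetamide (TAA, 5) and the bile duct toxicants alpha-naphthyl isothiocyanate (ANIT, 4) and 4,4'-methylene dianiline (MDA, 7), with 0.5% methylcellulose as the vehicle (Ctrl, 13). Carbon tetrachloride (CCl4, 7), galactosamine (GAL, 4) and a saline control (CIP, 2) were given intraperitoneally. Concanavalin A (ConA, 7), a lectin that activates T cells, and a second saline control (CIV, 2) were given through the tail vein. Per the labels, corn oil was also a vehicle, and no control mouse received it, so for a compound given in corn oil the compound and the vehicle cannot be told apart. The doses of the compounds are not given in the sources used here. A portion of 1 lobe of each perfused liver was sequenced, so in these bulk samples fewer cells of a type and less RNA per cell cannot be told apart.

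Bile acids return from the gut in portal blood and enter hepatocytes across the basolateral membrane, chiefly through the sodium-dependent carrier encoded by Slc10a1 and the organic anion transporting polypeptides encoded by the Slco genes. They leave into the canaliculus through the bile salt export pump, encoded by Abcb11, while Abcb4 moves phosphatidylcholine into bile and Abcc2 moves conjugates such as bilirubin glucuronide. In cholestasis, the transporters encoded by Abcc3, Abcc4 and the Slc51a-Slc51b pair can return bile acids and conjugates to the blood. The bile acid receptor FXR is known to act on Abcb11 and Slc51b, and the stress-responsive factor NRF2 on Abcc2, Abcc3 and Abcc4.

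The promoters of 4 members are shown: Abcb11 and Slc51b as genes on which FXR is known to act, and Abcc2 and Abcc4 as genes on which NRF2 is known to act. Each is the 250 bases before a RefSeq transcription start in build GRCm38.p6, written 5′ to 3′ on the gene's strand. Capitals mark a match to a motif searched on both strands. The IR-1 motif bound by FXR was AGGTCA and its inverse TGACCT, 1 base apart, and its relaxed form, which takes in every match to the strict one, was AGGNCA and TGNCCT, 1 base apart. The core of the antioxidant response element bound by NRF2 was TGACNNNGC. The HNF1 motif was GTTAAT and ATTAAC, 1 base apart, and the DR-1 motif was AGGTCA repeated in the same direction, 1 base apart.
Abcb11, chr2:69342617-69342866, minus strand: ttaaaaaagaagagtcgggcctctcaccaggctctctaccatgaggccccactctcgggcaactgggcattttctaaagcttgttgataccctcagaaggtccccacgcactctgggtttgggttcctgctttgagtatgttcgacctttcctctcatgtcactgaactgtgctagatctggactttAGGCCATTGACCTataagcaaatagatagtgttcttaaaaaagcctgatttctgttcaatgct
Slc51b, chr9:65422774-65423023, minus strand: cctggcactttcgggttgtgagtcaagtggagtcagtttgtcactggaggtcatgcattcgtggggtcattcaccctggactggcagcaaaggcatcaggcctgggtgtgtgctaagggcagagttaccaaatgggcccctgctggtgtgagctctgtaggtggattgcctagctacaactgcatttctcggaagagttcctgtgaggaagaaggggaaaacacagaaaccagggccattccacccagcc
Abcc4, chr14:118706220-118706469, minus strand: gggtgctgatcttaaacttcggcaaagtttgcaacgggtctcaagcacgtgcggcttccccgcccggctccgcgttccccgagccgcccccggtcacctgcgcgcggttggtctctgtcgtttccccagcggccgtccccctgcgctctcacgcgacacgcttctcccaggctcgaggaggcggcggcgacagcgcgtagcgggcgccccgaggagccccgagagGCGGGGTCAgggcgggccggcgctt
Abcc2, chr19:43782058-43782307, plus strand: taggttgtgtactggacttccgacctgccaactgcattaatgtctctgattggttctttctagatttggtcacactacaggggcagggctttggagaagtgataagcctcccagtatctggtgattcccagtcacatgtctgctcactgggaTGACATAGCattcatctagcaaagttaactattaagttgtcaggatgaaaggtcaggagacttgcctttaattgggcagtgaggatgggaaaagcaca
Of the 10 members, 9 had a promoter in the RefSeq table, with 11 promoters in all. The relaxed IR-1 lay 63 to 51 bases before the start in Abcb11 and 88 to 76 bases before it in Slco1b2, and it was present in 0.0852% of 32851 promoters of the same length. The antioxidant core lay in both Abcc4 promoters and in that of Abcc2, and it was present in 10.2% of the 32851 promoters. None of the 5 motifs had a match in the Slc51b window, and the strict IR-1, HNF1 and DR-1 motifs had none in any member. A match is a description of these letters and not a shown binding site.

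Each library held 13826343 to 35075809 estimated counts. Of the 40 treated libraries, 3 stood apart from their groups. For every treated library, the deviation from the vehicle mean over 12271 genes (transporters, regulators and markers left out) was correlated with the mean deviation of its own group, itself left out, and of the other groups. In the other 37 the own group was the nearest. The library labelled ANIT 1 correlated at 0.48 with its own group and at 0.71 with MDA, the library labelled MDA 1 at 0.45 with its own group and at 0.62 with ANIT, and the library labelled APAP 1 at 0.49 with its own group and at 0.73 with ConA. The labels were kept, and the results on the 10 members, and those on other named genes where they moved, are given with and without the mice numbered 1. Hepatocyte markers were abundant in all groups, as the labelled tissue requires: albumin (Alb) averaged 46135 CPM in the gavage controls.

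Levels are in CPM, counts per 1000000 scaled by the trimmed mean of M-values (TMM) over all 57 samples. The deposited values appear to be corrected for transcript length, so levels of different genes are compared only as approximate amounts per length. In the 13 gavage controls the order of the mean levels was Slc10a1 (481 ± 121 CPM, SD), Abcc3 (155 ± 21.7), Abcb11 (114 ± 20.4), Abcc2 (101 ± 20.6), Slco1b2 (97.5 ± 31.7), Abcb4 (56.2 ± 4.99), Slco1a1 (38.1 ± 15.2), Slco1a4 (27.8 ± 6.48), Slc51b (2.36 ± 1.87) and Abcc4 (1.08 ± 0.252). The neighbours from Abcb11 to Slco1b2 lay within 1 SD of each other. Slco1a1 and Slco1a4, and Slc51b and Abcc4, did so only by the larger SD of each pair. Uptake and canalicular genes were thus all well expressed in control liver, and of the basolateral escape genes only Abcc3 was. Slc51a, which encodes the partner without which the product of Slc51b does not transport, was listed at 0 in all but 2 of the 57 livers and reached 0.107 CPM at most.

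**Figure D1:**
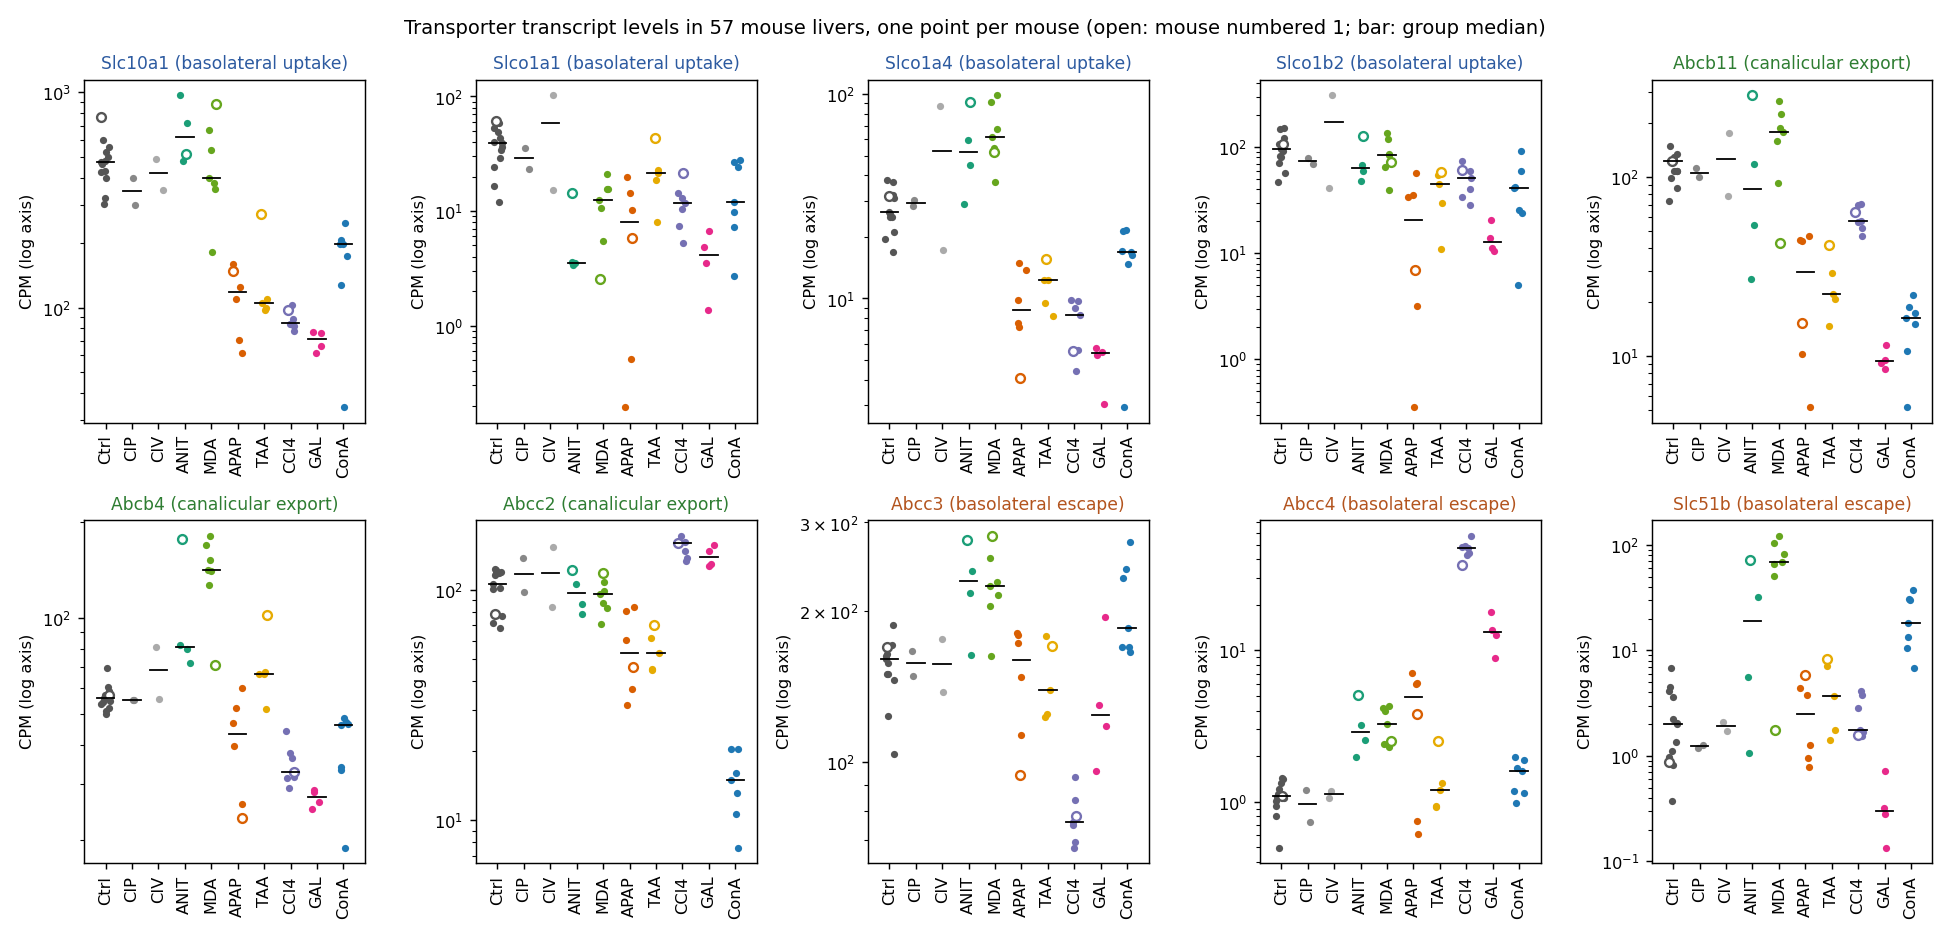
Level of each transporter in CPM (log axis) in every mouse, by group, with the group median as a bar and mice numbered 1 as open circles. Abcc4 lies between 36.9 and 56.9 CPM in the 7 CCl4 mice, and Slc51b between 50.5 and 121 CPM in 6 of the 7 MDA mice.

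Each compound was compared with the vehicle of its own route by edgeR's quasi-likelihood test, and a gene is called where the Benjamini-Hochberg adjusted p over all genes tested is under 0.05. All 10 members passed the filter on low counts in every comparison. Under APAP 8 of 10 members were called, 1 higher and 7 lower, where of all genes tested 31.8% were called, 17.3% higher and 14.6% lower. Under CCl4 7 were called, 1 higher and 6 lower, against 33.5% of all genes (18% and 15.6%). Under GAL 7 were called, 1 higher and 6 lower, against 28.5% of all genes (12.8% and 15.7%). Under ANIT 6 were called, 5 higher and 1 lower, against 28.2% of all genes (14% and 14.2%). Under MDA 6 were called, 5 higher and 1 lower, against 33.8% of all genes (17.4% and 16.4%). Under TAA 6 were called, 1 higher and 5 lower, against 50.5% of all genes (26.4% and 24%). The members' share under TAA was close to that of all genes. Under ConA 3 were called, 1 higher and 2 lower, against 34.2% of all genes (16.8% and 17.3%). Under ConA it was again close to the background. With library totals in place of TMM, the members higher and lower were 3 and 3 under CCl4, 2 and 5 under GAL and 1 and 7 under ConA. Of all genes it called 4561 higher and 1097 lower under CCl4 (36.8%), 5501 and 841 under GAL (40.9%) and 1100 and 3734 under ConA (34.2%). That scaling moved the median of all genes by 0.43, 0.76 and -0.59 on the log2 scale in these 3 comparisons. Treated and control mice did not overlap in 3 members under APAP (6.69% of all genes), 8 members under CCl4 (40.9% of all genes), 8 members under GAL (52.3% of all genes), 2 members under ANIT (8.95% of all genes), 2 members under MDA (4.76% of all genes), 3 members under TAA (20.2% of all genes) and 5 under ConA (39.9%). With 2 saline mice as controls, a gap between the groups is thus common to 39.9% or more of all genes. The median log2 fold change over the 10 members was 0.51 under ANIT and 0.53 under MDA, and it was -1.16 under APAP, -0.75 under TAA, -0.71 under CCl4, -2.04 under GAL and -1.47 under ConA. Over all genes tested the median lay between -0.01 and 0.10 in these comparisons.

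By role, over the 7 compounds, uptake genes were called lower in 16 of 28 gene-compound pairs and higher in 2. Canalicular genes were called lower in 11 of 21 pairs and higher in 3. Basolateral escape genes were called higher in 10 of 21 pairs and lower in 1. In these 7 comparisons 12.8% to 26.4% of all genes were called higher and 14.2% to 24% lower. The 4 gavage compounds share their controls, as do CCl4 and GAL, so these pairs are not independent.

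**Figure D2:**
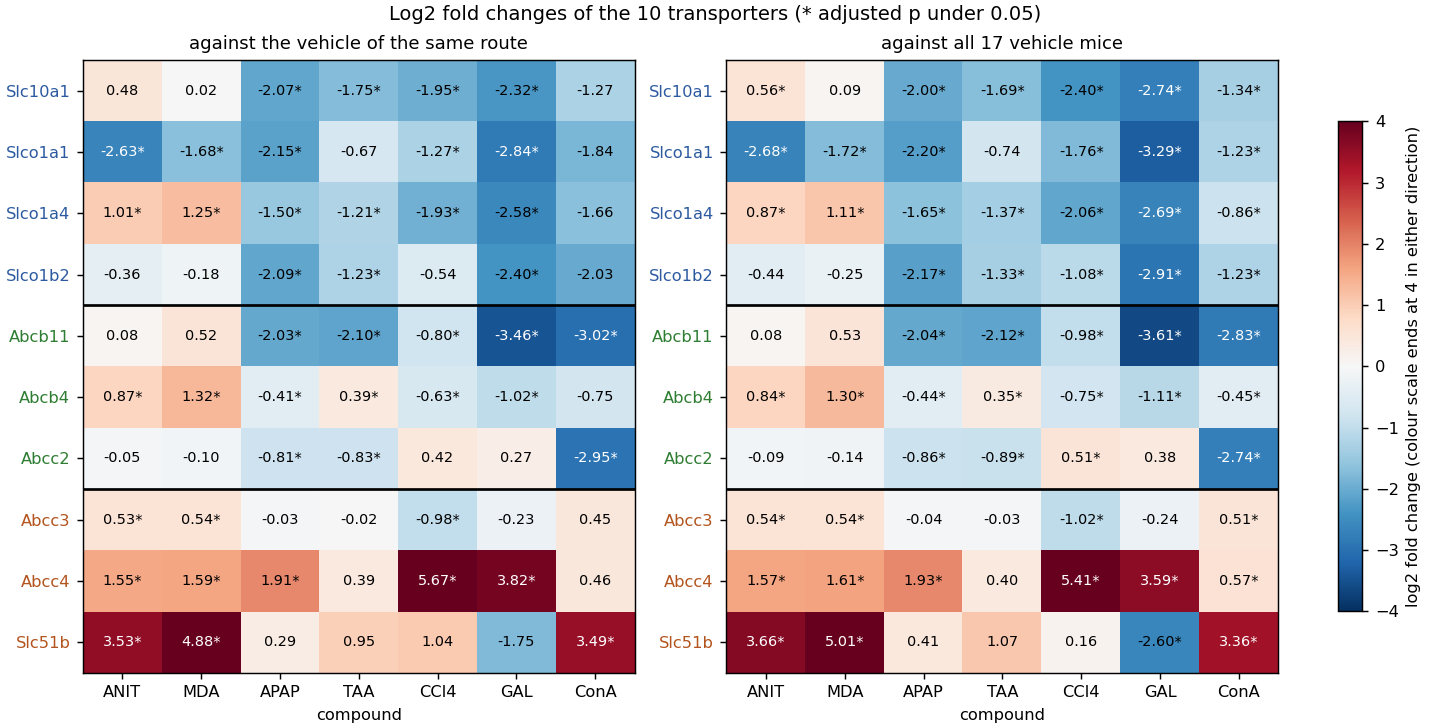
Log2 fold change of the 10 transporters (rows, by role) under the 7 compounds (columns), against the vehicle of the same route on the left and against all 17 vehicle mice on the right. An asterisk marks an adjusted p under 0.05. Abcc4 is positive and Slco1a1 negative in every column of both panels, and with library totals in place of TMM Abcc4 turns negative under ConA, at -0.18 and -0.097.

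Slc10a1 encodes the sodium-taurocholate cotransporting polypeptide, the main carrier of conjugated bile acids from blood. Its 13 gavage controls ranged from 304 to 771 CPM with a median of 474. The 6 APAP mice ranged from 61.6 to 159 with a median of 118. The TAA mice stood at 273, 97.6, 105, 110 and 99.9. All of these mice lay below every gavage control, and the TAA mouse at 273 was the one numbered 1. The gene fell 4.20-fold under APAP (log2 -2.07 ± 0.23 SE, adjusted p = 2.2e-06) and 3.35-fold under TAA (-1.75 ± 0.26, adjusted p = 1.8e-05). After CCl4 the 7 mice ranged from 77.95 to 103 CPM, and after GAL the mice stood at 76.2, 77.2, 66.3 and 61.8, where the 2 CIP mice had 400 and 299. These groups were narrow and did not overlap their controls. The gene fell 3.88-fold under CCl4 (-1.95 ± 0.13) and 4.99-fold under GAL (-2.32 ± 0.19). Under ANIT and MDA it did not fall. ANIT mice stood at 517, 723, 478 and 968 CPM, with a log2 difference of 0.48 ± 0.20 (adjusted p = 0.088). MDA mice ranged from 180 to 881, with a difference of 0.02 ± 0.23 (adjusted p = 0.97). Without the mice numbered 1 the ANIT difference was 0.68 and passed the test (adjusted p = 0.016). That fit rests on the ANIT mice at 723, 478 and 968 CPM. Against all 17 vehicles, with every ANIT mouse, the difference was 0.56 ± 0.20 and was called (adjusted p = 0.040). This call was lost without ANIT mouse 4 (0.33, 0.28) or 2 (0.51, 0.12) and with library totals in place of TMM (0.36, 0.11).

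Slco1a1 and Slco1a4 encode organic anion transporting polypeptides that carry bile acids, steroid conjugates and drugs. The 2 genes moved in opposite directions under ANIT and MDA. Slco1a1 ranged from 12.0 to 61.5 CPM in the gavage controls with a median of 39.0. The ANIT mice stood at 14.3, 3.49, 3.58 and 3.36, and the MDA mice ranged from 2.56 to 20.85 with a median of 12.4. Of the ANIT mice, all but number 1 lay far below the controls. Slco1a1 fell 6.21-fold under ANIT (-2.63 ± 0.48, adjusted p = 6.1e-04) and 3.21-fold under MDA (-1.68 ± 0.35, adjusted p = 9.8e-04). Slco1a4 ranged from 16.9 to 37.98 CPM in the same controls. The ANIT mice stood at 91.5, 45.1, 28.9 and 59.3, and the MDA mice ranged from 37.2 to 98.6. In both groups most mice lay above the controls. Slco1a4 rose 2.02-fold under ANIT (1.01 ± 0.22, adjusted p = 0.0027) and 2.38-fold under MDA (1.25 ± 0.17, adjusted p = 1.3e-05). Without the mice numbered 1 both genes were called in the same direction against Ctrl under both compounds: Slco1a1 at -3.36 and -1.43, and Slco1a4 at 0.71 and 1.31. Against all 17 vehicles the ANIT call on Slco1a4 was lost without those mice (0.55, adjusted p = 0.24). Against Ctrl it was lost within replicate numbers 1 to 4 (1.05, adjusted p = 0.068).

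Under APAP, CCl4 and GAL both genes fell. Slco1a4 fell under APAP (-1.50 ± 0.23), TAA (-1.21 ± 0.19), CCl4 (-1.93 ± 0.28) and GAL (-2.58 ± 0.28), with GAL mice at 5.75, 5.48, 5.32 and 3.05 CPM against 30.2 and 28.4 in CIP. Slco1a1 fell under APAP (-2.15 ± 0.63), CCl4 (-1.27 ± 0.41) and GAL (-2.84 ± 0.56). Under TAA Slco1a1 was at -0.67 ± 0.36 (adjusted p = 0.13), and without the mice numbered 1 at -0.98 (adjusted p = 0.031). The CCl4 call on Slco1a1 (adjusted p = 0.040) was lost without either CIP mouse (0.29 without number 7 and 0.080 without number 8), without CCl4 mouse 5, 6, 8, 10 or 12 (0.052 to 0.065), with library totals in place of TMM (0.11), in 1 fit over all groups (0.25) and without the filter on low counts (0.059). The GAL call on Slco1a1 was lost without either CIP mouse (0.087 and 0.053).

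Slco1b2, the liver-specific organic anion transporting polypeptide that takes up bilirubin and statins, fell under APAP (-2.09 ± 0.61, adjusted p = 0.013), TAA (-1.23 ± 0.32, adjusted p = 0.0036) and GAL (-2.40 ± 0.30, adjusted p = 0.0037). GAL mice stood at 11.3, 14.1, 20.4 and 10.6 CPM against 79.4 and 69.2 in CIP. The TAA mice stood at 59.0, 10.9, 45.2, 54.4 and 29.7 against 47.2 to 153 in the gavage controls, so the TAA group overlapped its controls. Under ANIT, MDA and CCl4 it did not pass the test, with log2 differences of -0.36 ± 0.28, -0.18 ± 0.23 and -0.54 ± 0.32.

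Hepatocyte markers moved with some of these results. Of 6 hepatocyte markers, 4 were called lower and none higher under CCl4, and all 6 lower under GAL. Their summed level was 16560 to 27665 CPM in CCl4 and 22654 to 30122 in GAL, against 47436 and 52475 in CIP. In the APAP and TAA groups the sum (59326 to 84189 and 60219 to 99017) lay within the range of the gavage controls, 44613 to 100033, and members of this list were called in both directions (2 higher and 1 lower under APAP, 2 and 2 under TAA). Periportal hepatocyte markers were lower in both groups: 4 of 6 were called lower under APAP and 6 of 6 under TAA, with sums of 1409 to 3804 and 1452 to 3557 CPM, below every gavage control (4122 to 9478). All 6 were also called lower under CCl4 and GAL, with sums of 1357 to 1977 and 746 to 1207 against 5450 and 6903 in CIP. Of 6 pericentral markers all were called lower under CCl4, with sums of 218 to 371 CPM against 3441 and 3772 in CIP, and 3 were called lower under GAL, 5 under MDA and 4 under TAA. In MDA 6 mice had sums of 946 to 2129 and the mouse numbered 1 had 5274, against 2738 to 4535 in the gavage controls. With the mice numbered 1 left out, all 6 pericentral markers were called lower under APAP, MDA and TAA, and 5 of 6 periportal markers under APAP. Markers of other cells moved under TAA as well: all 5 neutrophil markers were called higher (sums of 153 to 783 CPM against 0.657 to 50.4), as were 3 of 4 monocyte markers and 2 of 3 B cell markers, and of 5 sinusoidal endothelium markers 4 were called lower and 1 higher. Under CCl4 3 of 5 endothelium markers were called lower (sums of 64.2 to 93.5 CPM against 110 and 135 in CIP), and 2 of 4 neutrophil markers tested and 3 of 4 monocyte markers higher. Under GAL 3 of 4 neutrophil markers tested (sums over the 5 listed of 19.7 to 34.8 against 3.11 and 3.37) and 3 of 4 monocyte markers (17.7 to 47.0 against 3.02 and 7.57) were called higher. Albumin (Alb) alone averaged 15201 CPM in CCl4 and 19429 in GAL against 33474 in CIP, and with library totals in place of TMM 20939 and 32824 against 33702. The part of these markers in the result was not tested.

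Abcb11 encodes the bile salt export pump, the rate-limiting step of bile acid secretion. In the 13 gavage controls it ranged from 72.9 to 149 CPM with a median of 123. APAP mice ranged from 5.18 to 46.5 with a median of 29.6, and TAA mice stood at 41.7, 14.6, 22.0, 29.0 and 20.7. Every mouse of both groups lay below every control. Abcb11 fell 4.09-fold under APAP (-2.03 ± 0.36, adjusted p = 2.3e-04) and 4.28-fold under TAA (-2.10 ± 0.22, adjusted p = 1.6e-07). In GAL mice it stood at 11.5, 9.54, 9.10 and 8.42, and CCl4 mice ranged from 47.0 to 70.5, against 112 and 99.8 in CIP. GAL mice were uniformly low, and CCl4 mice lay between them and the controls. The fall was 11.0-fold under GAL (-3.46 ± 0.18, adjusted p = 0.0018) and 1.74-fold under CCl4 (-0.80 ± 0.17, adjusted p = 0.0052). The CCl4 call was lost with library totals in place of TMM (-0.37, adjusted p = 0.18; -0.30 and 0.31 without mitochondrial genes), without CIP mouse 7 (-0.69, 0.060) and in 1 fit over all groups (-0.83, 0.28). ConA mice ranged from 5.20 to 22.0 CPM with a median of 16.3, against 77.8 and 176 in CIV. Abcb11 fell 8.10-fold under ConA (-3.02 ± 0.40, adjusted p = 3.8e-04). It passed the test without either CIV mouse too, at -3.46 and -2.35.

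Abcb11 varied widely among the ANIT mice. The mice stood at 286, 53.7, 118 and 27.0 CPM, so that 1 mouse lay above all controls, 2 below and 1 within their range. The difference was 0.08 ± 0.36 (adjusted p = 0.89), or -0.16 with library totals in place of TMM, and without the mice numbered 1 it was -0.76 (adjusted p = 0.073). Under MDA 6 mice ranged from 92.7 to 266 CPM, and the mouse numbered 1 had 42.6. The difference was 0.52 ± 0.22 (adjusted p = 0.077), and without the mice numbered 1 the gene rose by 0.70 (adjusted p = 0.0031).

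Abcb4, the phospholipid floppase that protects the biliary epithelium from bile salts, was the steadiest member in controls. Its gavage controls ranged from 49.8 to 69.4 CPM. ANIT mice stood at 177, 72.3, 82.4 and 79.9, and MDA mice ranged from 70.9 to 181 with a median of 141. Every mouse of both groups lay above every control. Abcb4 rose 1.83-fold under ANIT (0.87 ± 0.16, adjusted p = 5.9e-04) and 2.50-fold under MDA (1.32 ± 0.12, adjusted p = 6.5e-08). In the ANIT group the highest mouse, and in the MDA group the lowest, was the mouse numbered 1. Without them the rise was 0.50 under ANIT and 1.44 under MDA, both called. Within replicate numbers 1 to 4, which hold all ANIT mice, the ANIT rise was 0.89 and missed the threshold (adjusted p = 0.064). Abcb4 also rose under TAA by 0.39 ± 0.12 (adjusted p = 0.010), a call lost without the mice numbered 1 (0.21, adjusted p = 0.059). It fell under CCl4 (-0.63 ± 0.16) and GAL (-1.02 ± 0.15). With library totals in place of TMM those falls were -0.19 (adjusted p = 0.51) and -0.25 (adjusted p = 0.34). The CCl4 call was also lost without CIP mouse 7 (0.081) or 8 (0.076) and in 1 fit over all groups (0.080). The fall under APAP (-0.41 ± 0.15, adjusted p = 0.044) was lost without the mouse numbered 1 (adjusted p = 0.10), 2 (0.081) or 8 (0.12). It was also lost with library totals in place of TMM (-0.22, 0.46) and in 1 fit over all groups (0.056). The same held with number range as a covariate (0.058) and without the filter on low counts (0.057).

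Abcc2 encodes the canalicular exporter of glutathione and glucuronide conjugates, and ConA was the compound with its lowest levels. ConA mice stood between 7.59 and 20.4 CPM with a median of 15.0, against 83.9 and 153 in CIV and 68.2 to 122 in the gavage controls. No other mouse of the study was below 31.5 CPM, the lowest APAP mouse. Abcc2 fell 7.74-fold under ConA (-2.95 ± 0.32, adjusted p = 1.4e-04), and without either CIV mouse by 3.29 and 2.49 on the log2 scale, both called. The fall was smaller under APAP (-0.81 ± 0.20, adjusted p = 0.0041) and TAA (-0.83 ± 0.16, adjusted p = 2.9e-04). Under CCl4 the mice ranged from 133 to 171 CPM against 97.1 and 137 in CIP, a difference of 0.42 ± 0.15 (adjusted p = 0.054). Under GAL the difference was 0.27 ± 0.19 (adjusted p = 0.32). With library totals in place of TMM, Abcc2 was called higher under both CCl4 (0.88, adjusted p = 0.0024) and GAL (1.04, adjusted p = 0.010). Without CIP mouse 8 the CCl4 difference was 0.67 (adjusted p = 0.029). It was small under ANIT and MDA, at -0.05 ± 0.17 and -0.10 ± 0.13. The GAL mice had Abcb11 and Abcc2 far apart: Abcc2 stood at 129, 147, 127 and 157 CPM where Abcb11 was at most 11.5.

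Abcc4 encodes a basolateral exporter of bile acids with glutathione and of cyclic nucleotides. It ranged from 0.497 to 1.44 CPM in the gavage controls, and the CIP mice had 0.740 and 1.195. CCl4 mice ranged from 36.9 to 56.9 with a median of 47.3. GAL mice stood at 18.1, 13.5, 8.88 and 12.7. Both groups lay far above every vehicle mouse of the study. Abcc4 rose 50.9-fold under CCl4 (5.67 ± 0.27, adjusted p = 3.3e-06) and 14.1-fold under GAL (3.82 ± 0.40, adjusted p = 0.0026). The ANIT mice stood at 5.06, 2.57, 1.97 and 3.20, and the MDA mice ranged from 2.30 to 4.26 with a median of 3.26. These groups also lay above every gavage control, by a smaller margin. The rise was 2.93-fold under ANIT (1.55 ± 0.23, adjusted p = 9.2e-05) and 3.01-fold under MDA (1.59 ± 0.18, adjusted p = 9.8e-07), and without the mice numbered 1 it was 1.27 and 1.64 on the log2 scale, both called. Under TAA and ConA it did not pass the test, at 0.39 ± 0.25 and 0.46 ± 0.41, the latter -0.18 with library totals in place of TMM.

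The rise of Abcc4 under APAP (1.91 ± 0.36, adjusted p = 5.0e-04) was not shared by all mice. Numbers 2, 4 and 6 had 6.11, 6.01 and 7.03 CPM and number 1 had 3.77, while numbers 8 and 11 had 0.745 and 0.608, within the control range. Numbers 8 and 11 also had the lowest Slco1b2 of the study, 0.356 and 3.21 CPM, and number 1 had 6.89, against 56.7, 35.4 and 34.2 in numbers 2, 4 and 6. The summed level of 6 pericentral hepatocyte markers was likewise lowest in numbers 8 and 11, at 87.7 and 79.7 CPM, where the other APAP mice had 420 to 3881 and the gavage controls 2738 to 4535. Of these 6 markers 5 were called lower under APAP and none higher. The same 2 mice had the highest sums of their group for 5 neutrophil markers (186 and 250 CPM against 11.2 to 37.3) and for 4 monocyte markers (47.6 and 66.8 against 6.40 to 19.9). The part of these markers in the result was not tested. Within the mice numbered above 4, the Abcc4 difference was 1.29 and missed the threshold (adjusted p = 0.11).

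Slc51b encodes the beta subunit of the organic solute transporter, which moves bile acids down their gradient into blood. It ranged from 0.373 to 6.79 CPM in the gavage controls with a median of 1.99. MDA mice numbered 2, 3, 4, 7, 8 and 12 had 121, 65.4, 68.6, 50.5, 104 and 82.3, and the mouse numbered 1 had 1.75. ANIT mice had 72.3, 5.61, 32.2 and 1.07. In MDA all but 1 mouse were far above the controls, and in ANIT 2 of 4 were. Slc51b rose 29.4-fold under MDA (4.88 ± 0.54, adjusted p = 8.8e-07) and 11.6-fold under ANIT (3.53 ± 0.66, adjusted p = 7.5e-04). Without the mice numbered 1 the log2 changes were 5.03 under MDA and 2.38 under ANIT (adjusted p = 0.017). ConA mice had 18.2, 29.98, 37.7, 30.8, 13.5, 10.5 and 6.79 CPM against 2.10 and 1.74 in CIV. The rise under ConA was 11.3-fold (3.49 ± 0.70, adjusted p = 0.0039), and the gene passed the test without either CIV mouse. Under APAP, TAA and CCl4 the differences were 0.29 ± 0.52, 0.95 ± 0.52 and 1.04 ± 0.48, none past the threshold. Within replicate numbers 1 to 4 the TAA difference was 2.96 and passed the test (adjusted p = 0.013), and with library totals in place of TMM so did the CCl4 difference (1.47, adjusted p = 0.048). In GAL mice Slc51b stood at 0.280, 0.724, 0.320 and 0.135 CPM against 1.27 and 1.195 in CIP (-1.75 ± 0.66, adjusted p = 0.092).

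Bile duct cells also express Slc51b, and their markers were read beside it. The summed level of 7 cholangiocyte markers was 27.4 to 67.0 CPM in MDA and 19.2 to 35.4 in ANIT, within or near the gavage range of 22.7 to 106. Of the 5 markers that passed the filter, 1 was called higher under MDA, and 1 higher and 2 lower under ANIT. In ConA the sum was 92.4 to 202 against 26.8 and 62.3 in CIV, with 2 of 5 called higher. Sox9 was the marker called higher under MDA (1.16 ± 0.27) and ANIT (1.499 ± 0.37), and it was called higher under ConA (4.86 ± 0.74), APAP (2.68 ± 0.45) and TAA (3.05 ± 0.21) as well. The median over the 5 markers tested was 0.31 under MDA, -0.76 under ANIT and 1.46 under ConA. Krt19, not called in any of these, had medians of 1.42 CPM in MDA, 1.603 in ANIT and 5.35 in ConA, against 2.42 in the gavage controls, and Cftr was at or near 0 in every group. Neutrophil marker sums were 6.62 to 119 CPM in MDA and 13.3 to 45.6 in ANIT, against 0.657 to 50.4 in the gavage controls. With the mice numbered 1 left out, 2 of 3 neutrophil markers tested were called higher and 4 of 5 stellate markers lower under MDA. Under ANIT 0 of either list were called. Of 5 endothelium markers 1 was called higher and 2 lower under each compound. Other cell types' markers moved under ConA too. All 5 Kupffer cell markers were called lower, with sums of 22.98 to 49.8 CPM against 277 and 279.8 in CIV, and of 5 sinusoidal endothelium markers 3 were called lower and 1 higher. The 4 neutrophil markers tested were all called higher, with sums over the 5 listed of 126 to 286 against 5.87 and 6.38. Of 6 periportal hepatocyte markers 3 were called lower, with sums of 1236 to 3931 against 5402 and 5657. The part of these cell types in the MDA, ANIT and ConA results was not tested.

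**Figure D3:**
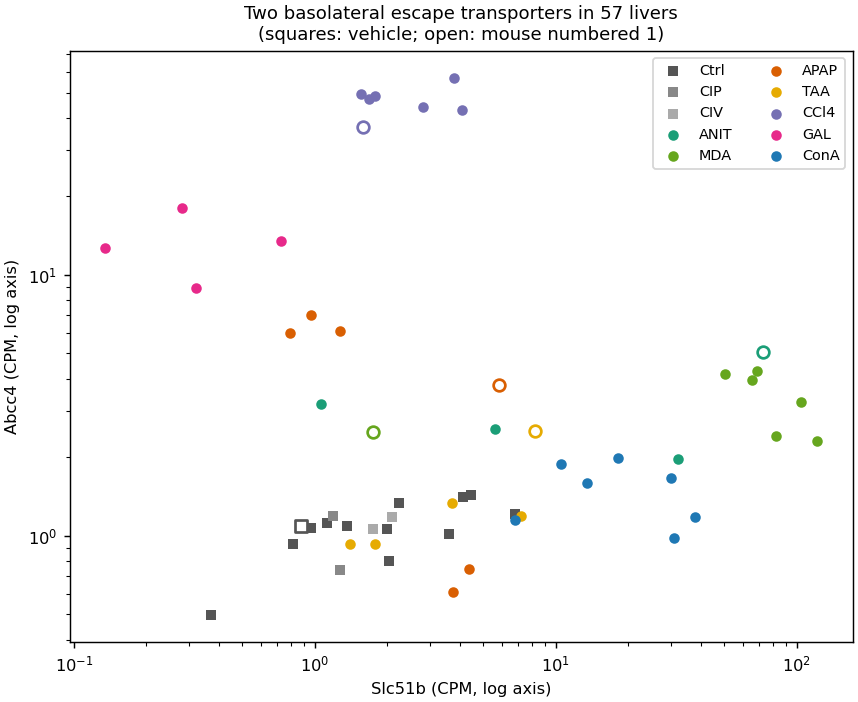
Abcc4 against Slc51b in CPM in each of the 57 livers, both axes logarithmic, with squares for vehicle mice and open symbols for mice numbered 1. CCl4 and GAL mice lie high on Abcc4 with Slc51b at 4.1 CPM or below, ConA mice lie high on Slc51b with Abcc4 at 1.98 CPM or below, and MDA mice other than number 1 are raised on both.

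Abcc3, a basolateral exporter of glucuronides and bile acids and the one escape gene with a high level in control liver, rose under ANIT and MDA and fell under CCl4. Its gavage controls ranged from 104 to 188 CPM. ANIT mice stood at 276, 217, 163 and 241, and MDA mice ranged from 163 to 282. It rose 1.45-fold under both ANIT (0.53 ± 0.13, adjusted p = 0.0063) and MDA (0.54 ± 0.11, adjusted p = 6.8e-04). With library totals in place of TMM the ANIT difference was 0.31 (adjusted p = 0.15), and within replicate numbers 1 to 4 it was 0.50 (adjusted p = 0.11). Under CCl4 the mice ranged from 67.7 to 93.4 against 148 and 167 in CIP, and Abcc3 fell 1.98-fold (-0.98 ± 0.13, adjusted p = 3.3e-04). In the same mice Abcc4, from the same family, was at its highest. Under APAP, TAA, GAL and ConA the differences were -0.03 ± 0.14, -0.02 ± 0.12, -0.23 ± 0.28 and 0.45 ± 0.28, none called. With library totals these were 0.17 under APAP, 0.56 under GAL and -0.13 under ConA, also not called, so their sign depends on the scaling.

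**Figure D4:**
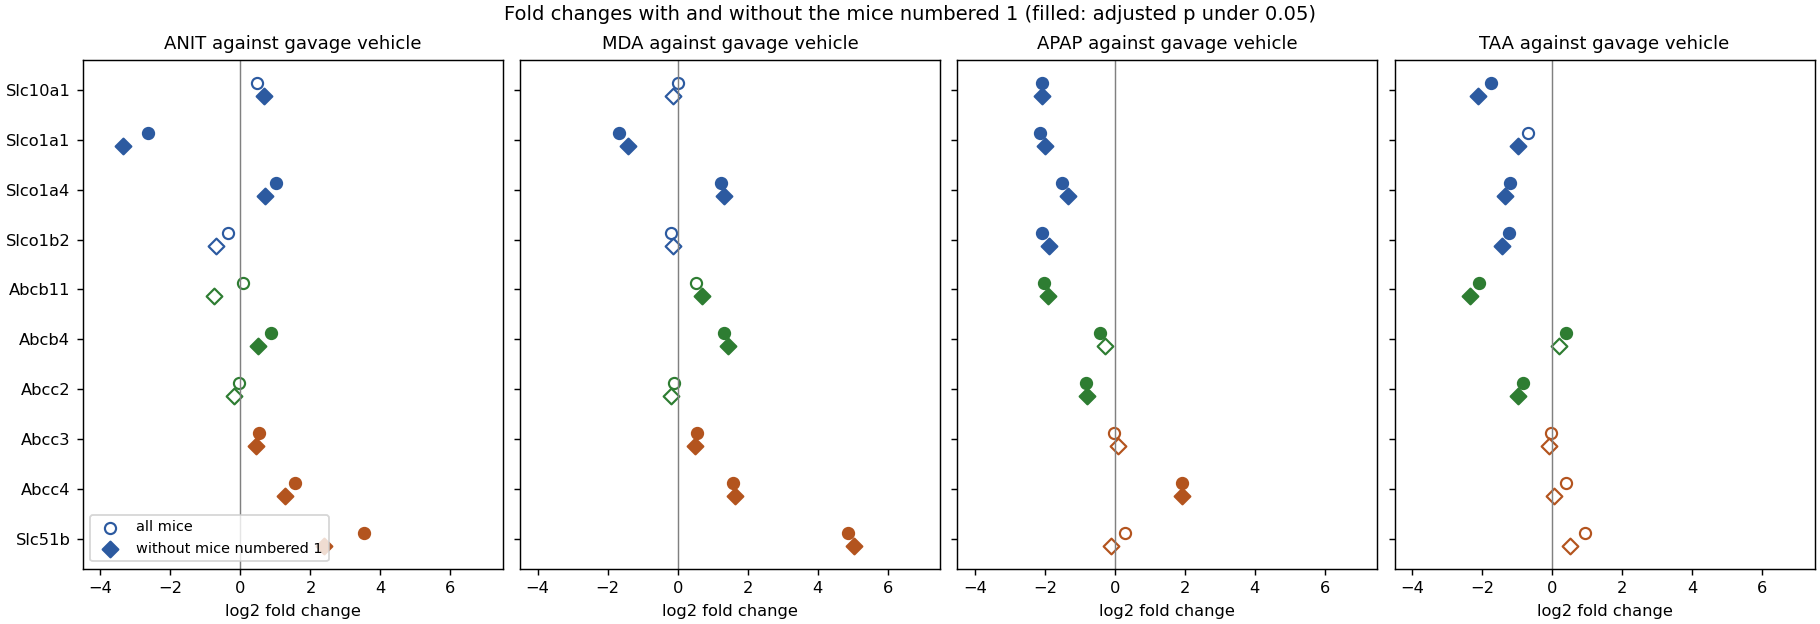
Log2 fold change of each transporter against the gavage vehicle for ANIT, MDA, APAP and TAA, with all mice (circles) and without the mice numbered 1 in either group (diamonds). Filled symbols have an adjusted p under 0.05. Abcb11 under ANIT moves from 0.08 to -0.76 and under MDA from 0.52 to 0.70.

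The ConA results on the 3 Slco uptake genes depended on which of the 2 CIV mice was used. Mouse 8 had 308 CPM of Slco1b2, 87.5 of Slco1a4 and 102 of Slco1a1, where mouse 7 had 40.9, 17.3 and 15.3. The first lay above every gavage control in all 3 genes and the second at or near the bottom of their range. Mitochondrial genes took 25.4% of the counts in CIV mouse 8 and 6.79% in CIV mouse 7. Against both CIV mice, Slc10a1, Slco1a1, Slco1a4 and Slco1b2 were at -1.27 ± 0.48, -1.84 ± 0.74, -1.66 ± 0.59 and -2.03 ± 0.77 under ConA, with adjusted p between 0.051 and 0.079. With library totals in place of TMM they were all called lower, at -1.94, -2.45, -2.24 and -2.58 (adjusted p 0.0030 to 0.013, 34.2% of all genes called). They were also called in 1 fit over all groups (36.4%), and Slc10a1, Slco1a1 and Slco1a4 with DESeq2 (39.2%). Against mouse 7 alone the 3 Slco genes were at 0.05, -0.11 and 0.02, and against mouse 8 alone at -2.63, -2.39 and -2.83. Slc10a1 was at -1.04 against mouse 7 and -1.45 against mouse 8, and in it every ConA mouse lay below both. These single-mouse fits assume that the lone mouse varies like the ConA group.

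Against all 17 vehicle mice, which mixes routes, 10 members were called under ConA (background 68%), 9 under CCl4 (53.4%), 8 under GAL (52.5%), 8 under APAP (33.4%), 7 under ANIT (28%), 6 under MDA (34.2%) and 6 under TAA (49.7%). With library totals in place of TMM the members higher and lower were 3 and 1 under ANIT (6 and 1 with TMM), 3 and 6 under GAL (1 and 7) and 1 and 7 under ConA (3 and 7). This scaling called 26.3%, 66.2% and 67.8% of all genes, with 8335 higher and 1759 lower under GAL and 2351 and 7011 under ConA. Under ConA the 4 uptake genes then fell against all vehicles, from -0.86 ± 0.30 for Slco1a4 to -1.34 ± 0.24 for Slc10a1. Abcb11 and Abcc2 were at -2.83 ± 0.22 and -2.74 ± 0.20, close to the values against CIV. Slc51b fell under GAL (-2.60 ± 0.65, adjusted p = 0.0019) and Slco1b2 under CCl4 (-1.08 ± 0.30, adjusted p = 0.0034), and Abcc2 rose under CCl4 (0.51 ± 0.13, adjusted p = 0.0013). Slc10a1 rose under ANIT (0.56 ± 0.20, adjusted p = 0.040), a call lost in the settings given above for that gene. The CCl4 call on Slco1b2 was lost with library totals in place of TMM (-0.51, adjusted p = 0.11). Between vehicles, no member was called for CIP against Ctrl (0.0131% of all genes called) or for CIV against Ctrl (0.0263%) by edgeR or DESeq2. At an unadjusted p under 0.05 there were 0 and 1 members, where 3.75% and 3.82% of all genes were, with Slco1a4 in CIV the one member. These comparisons rest on 2 saline mice each.

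Compounds of the same route were also compared directly. MDA against ANIT gave 0 called members and 0 called genes of 13360 (0%) by edgeR, with 1253 genes and no member at an unadjusted p under 0.05 and 78 genes and no member called by DESeq2. The differences ran from -0.47 ± 0.36 for Slc10a1 to 1.35 ± 1.00 for Slc51b. Without the mice numbered 1, 2 members were called, Slco1a1 higher in MDA by 1.94 (adjusted p = 0.019) and Abcb4 by 0.95 (adjusted p = 0.0094), where 4.59% of all genes were called. TAA against APAP called no member by edgeR or DESeq2, where edgeR called 2.62% of all genes. There were 2 members at an unadjusted p under 0.05, close to the 19.2% of all genes at that cut.

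ANIT and MDA differed from APAP and TAA in several members. TAA was lower than MDA in 9 members (background 30%, 14.3% lower), all but Slco1a1, with Slc51b at -3.96 ± 0.79, Abcb11 at -2.64 ± 0.42 and Slco1a4 at -2.48 ± 0.26. The call on Slco1b2 (adjusted p = 0.049) was lost in 10 of 12 fits with 1 mouse left out (0.053 to 0.115), and that on Abcc3 with library totals in place of TMM (0.093). MDA was above APAP in 5 (9.43%, 4.05% higher): Slc10a1 by 2.09 ± 0.35, Slco1a4 by 2.74 ± 0.32, Abcb11 by 2.54 ± 0.54, Abcb4 by 1.72 ± 0.26 and Slc51b by 4.61 ± 0.78. TAA against ANIT differed in 5 (26.2%), with Slco1a1 higher in TAA by 1.94 ± 0.58, and Slc10a1, Slco1a4, Abcb11 and Abcc2 lower. The call on Slco1a1 (adjusted p = 0.033) was lost in 6 of 9 fits with 1 mouse left out (0.052 to 0.096), and that on Abcb11 without ANIT mouse 1 (0.067). APAP was below ANIT in 2 (5.98%, 2.35% lower), Slc10a1 (-2.54 ± 0.31) and Slco1a4 (-2.49 ± 0.39). These counts without the mice numbered 1 were 9 (31.8% of all genes called), 5 (13.6%), 6 (32%) and 2 (16.2%), the last then close to the background. GAL against CCl4 differed in 6 members (42.5%). GAL was lower in Abcb11 (-2.57 ± 0.15), Slco1b2 (-1.76 ± 0.29), Slco1a1 (-1.46 ± 0.44), Abcc4 (-1.75 ± 0.18) and Slc51b (-2.70 ± 0.50), and higher in Abcc3 (0.85 ± 0.16).

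Of 21 other transporters of the same pathways, 20 passed the filter, and Slc51a did not. Called higher and lower were 3 and 7 under ANIT, 3 and 7 under MDA, 1 and 9 under APAP, 6 and 12 under TAA, 2 and 11 under CCl4, 3 and 12 under GAL, and 2 and 10 under ConA. Genes called lower under all 7 compounds included Slc22a7, which takes up organic anions, Slc47a1, which exports organic cations, Slc10a5 and Abcc6. The largest fall was that of Slc22a7 under ANIT (-2.71 ± 0.31), MDA (-2.58 ± 0.25), APAP (-2.10 ± 0.37) and GAL (-5.18 ± 0.44), of Slc10a5 under TAA (-2.86 ± 0.21) and ConA (-3.57 ± 0.52), and of Slc47a1 under CCl4 (-2.59 ± 0.21). The largest rise was that of Abcb1a, a multidrug exporter, under ANIT (2.79 ± 0.60) and MDA (4.13 ± 0.43). With the mice numbered 1 left out, the ANIT value was 1.42 ± 0.61 and not called (adjusted p = 0.092), and the MDA value was 4.29 ± 0.29. It was that of Abcc1, a basolateral relative of Abcc3, under APAP (1.79 ± 0.35), GAL (2.53 ± 0.45) and ConA (3.27 ± 0.51), and of Abcb1b under TAA (2.25 ± 0.49). With those mice left out, called higher and lower were 3 and 8 under ANIT, 3 and 7 under MDA, 2 and 9 under APAP and 6 and 12 under TAA. Under CCl4 the highest value, Abcb1a at 2.604 ± 1.76, was not called. Of 7 genes for scaffolds and trafficking of the canalicular membrane, called higher and lower were 0 and 1 under ANIT, 1 and 3 under MDA, 2 and 2 under APAP, 2 and 3 under TAA, 1 and 2 under CCl4, 1 and 0 under GAL, and 2 and 2 under ConA. Among them Pdzk1, which tethers several of these transporters, fell under every compound but GAL (-1.62 ± 0.69, adjusted p = 0.12).

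The nuclear receptors and factors that act on these genes were read from a list of 11, with 10 readout genes. Of the 11 regulators, called higher and lower were 4 and 0 under ANIT, 4 and 1 under MDA, 0 and 4 under APAP, 2 and 8 under TAA, 0 and 7 under CCl4, 1 and 3 under GAL, and 1 and 4 under ConA. Of the 10 readouts they were 6 and 1 under ANIT, 6 and 1 under MDA, 2 and 5 under APAP, 4 and 4 under TAA, 5 and 3 under CCl4, 4 and 2 under GAL, and 1 and 3 under ConA. Leaving out the mice numbered 1, the regulators were 5 and 0 under ANIT, 4 and 3 under MDA, 1 and 6 under APAP and 2 and 8 under TAA, and the readouts 6 and 1, 6 and 2, 2 and 5, and 4 and 4. Nr0b2, which encodes SHP and is induced through FXR, rose under ANIT (1.18 ± 0.35) and MDA (1.09 ± 0.24) and fell under TAA (-3.57 ± 0.33), CCl4 (-2.18 ± 0.42), GAL (-3.12 ± 0.44) and ConA (-5.96 ± 0.58). Nr1h4, which encodes FXR itself, fell under APAP, TAA, CCl4 and ConA, by -0.76 ± 0.17 to -1.89 ± 0.36. Nr1i2, which encodes the xenobiotic receptor PXR, rose under ANIT (0.88 ± 0.16) and MDA (1.15 ± 0.12) and fell under APAP, TAA, CCl4 and ConA. Cyp7a1, the rate-limiting enzyme of bile acid synthesis, fell under ANIT (-2.95 ± 1.06), MDA (-3.82 ± 1.32), APAP (-4.72 ± 1.16), TAA (-3.998 ± 0.95) and ConA (-4.59 ± 1.31). Cyp7a1 without the mice numbered 1 was not called under ANIT (-2.39 ± 0.98, adjusted p = 0.079), while under MDA the other 6 mice stood at 0 to 0.109 CPM and the call held (adjusted p = 4.3e-07). Without those mice Nr1h4 fell under MDA too (-0.77 ± 0.14), Cyp2b10 rose by 0.88 ± 0.25 under ANIT, and Srxn1 by 1.38 ± 0.24 under APAP. Srxn1, an NRF2 readout, rose under 6 compounds, most under CCl4 (4.94 ± 0.32) and GAL (3.99 ± 0.38), and was not called under ConA (1.72 ± 0.78). Nqo1, another NRF2 readout, rose under the same 6. The other 2 NRF2 readouts on the list, the glutathione synthesis genes Gclc and Gclm, were called higher under fewer compounds: Gclc under MDA (0.78 ± 0.15), TAA (1.02 ± 0.16), CCl4 (0.80 ± 0.27) and GAL (2.50 ± 0.24), and Gclm under ANIT (0.51 ± 0.13) and MDA (0.44 ± 0.11). Under ConA they stood at -0.85 ± 0.39 and -0.50 ± 0.23, not called. Cyp2b10, a readout of the receptor CAR, rose under ANIT (2.12 ± 0.37), MDA (3.25 ± 0.21) and CCl4 (1.14 ± 0.22) and fell under APAP, TAA, GAL and ConA.

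**Figure D5:**
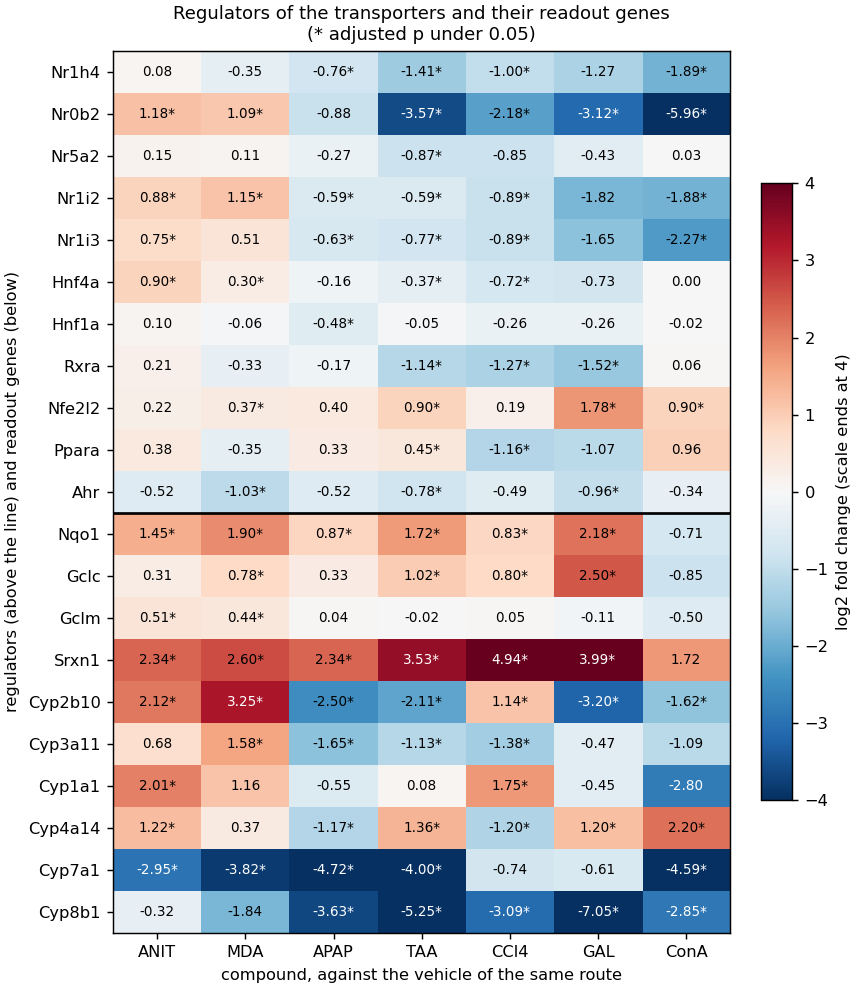
Log2 fold changes of 11 regulators (above the line) and 10 readout genes (below) under the 7 compounds, each against the vehicle of its route, with asterisks for an adjusted p under 0.05. Nr0b2 is higher under ANIT and MDA and lower under TAA, CCl4, GAL and ConA.

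For each member, the genes with the most similar pattern were sought among 12232 genes by Pearson's r of log2(CPM + 1) over the 57 livers, which share group means, so that r is a description without a test. Slc10a1 was most like Asgr2, a hepatocyte lectin receptor (r = 0.94), Adh5 and Mdh1. Abcb11 was most like Abca8b (0.92), Klkb1 and Cyp26a1, and Slco1a1 most like Ugt2b1 (0.87), Sult2a8 and Rgn. Abcc4 was most like Pmm1 (0.93), Dusp13 and 9530034E10Rik, and Slc51b most like Fyb2 (0.86), Smoc2 and Jade2. Slco1a4 was most like Slc17a1 (0.89), Cyp3a25 and Slc16a7, and Slco1b2 most like Cyp2j5 (0.89), Etnppl and F13b. Abcb4 was most like Eva1a (0.85), Cbr1 and Abca6, and Abcc2 most like Zdhhc6 (0.89), Sh3d19 and Pkp4. Abcc3 had the least similar first gene, Pex19 at 0.80, before Cblc and F12. Among the members themselves the highest r was 0.87 between Slc10a1 and Slco1a4, and the lowest was -0.62 between Abcc3 and Abcc4.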

How the data were processed

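For each liver the authors deposited estimated counts by gene, made with Salmon 1.6.0 and R 4.1.3 on GRCm39, per the submitters' processing notes. Per the labels' protocols, libraries came from a stranded mRNA kit and were read single-end. Over 5980 genes with 1 transcript, a gene's smallest value above 0 was lower the longer the transcript (rho -0.95, Spearman, across genes). The values thus appear corrected for length, which no header or label states. On log scales the slope was -1.38 over the 4620 longer of these genes, steeper than plain division by length. Rounded values of this kind may not vary as counts do, above all in genes of low level such as Abcc4 and Slc51b. Symbols came from GENCODE M21, which matched 51482 of 54307 IDs. Groups came from the sample descriptions, and each mouse is 1 replicate. Replicate numbers name different animals and did not pair them: in no comparison with more than 1 shared number did every same-numbered pair correlate above 0.1.

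Rounded counts were tested with edgeR 4.0.16 in R 4.3.3 (limma 3.58.1), TMM scaling and filterByExpr, on the 2 groups compared, two-sided, with adjustment over all genes. The p-values measure the spread among these mice. Levels are CPM after TMM over all samples. The test was also run on simulated counts, and no result given here rests on that run. DESeq2 1.42.0 and other settings served as alternatives. The named genes are the 10 members in every comparison. Of the other transporters, the largest rise and fall were named, with those called under all compounds, except 1 result that is not reported here. From the regulators and readouts, genes were named after their values were seen, and for likeness the 3 genes nearest to each member among those averaging 1 CPM or more. The members and lists were chosen with earlier results of these data known.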

Additional observations from a re-analysis of the deposited data

Results flagged for a closer look

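In groups of 4 to 7 mice, the highest and lowest mouse of each member was compared with the others by Dixon's ratio of its gap to the range of the group. Of 70 such tests 9 stood out. The members were read in the same mice and many of them move together. These tests are thus not independent, and their count is a description not set against chance. The library labelled ANIT 1 was far above the rest of its group in Slco1a1 (14.3 CPM) and Abcb4 (177 CPM). The library labelled MDA 1 was far below its group in Abcb4 (70.9 CPM) and Slc51b (1.75 CPM). Both libraries were nearer to another group than to their own over 12271 genes, transporters, regulators and markers left out. TAA mouse 1 was far above its group in Slc10a1 (273 CPM). ConA mouse 12 was far below its group in Slc10a1 (34.5 CPM), Slco1a4 (2.95 CPM) and Abcb4 (19.0 CPM). Leaving it out, Slc10a1 and Slco1a4 were called lower under ConA against CIV (-1.09 and -1.48). Abcb4 was not (-0.63, adjusted p = 0.051). GAL mouse 8 was the lowest of its group in Slco1a4 (3.05 CPM).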

How the results depend on the processing

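The counts of called members changed by over 1.5 times in these cases. With the replicate block the count was 2 for ANIT against Ctrl and 1 for APAP against Ctrl (main 6 and 8), where all genes called went from 28.2% to 6.84% and from 31.8% to 1.65%, and 4 for ANIT (10.3%) and 5 for APAP (13.2%) against all vehicles (main 7 and 8). With the block, APAP against ANIT and MDA against APAP had 0 (0% of all genes each), TAA against ANIT 1 (0.861%) and TAA against MDA 2 (10.4%), from main counts of 2, 5, 5 and 9. Slc51b under TAA was called with the block (1.76, adjusted p = 0.035). The numbers do not pair the mice, and the cause was not tested. Within replicate numbers 1 to 4, ANIT and APAP against Ctrl each had 3 (13.7% and 6.28% of all genes), with fewer mice. The ANIT calls lost were Abcb4 (0.89, adjusted p = 0.064), Slco1a4 (1.05, 0.068) and Abcc3 (0.50, 0.11). All ANIT mice are numbered 1 to 4 and most gavage controls are numbered higher, so compound and number range partly coincide. Kupffer cell marker sums were 151 to 187 CPM in gavage controls 1 to 4 and 258 to 437 in the others. With number range as a covariate ANIT had 6 (19.1%). With DESeq2, ConA against CIV had 6 (39.2% of all genes called), APAP against ANIT 5 (15.3%), MDA against APAP 8 (15.1%) and TAA against ANIT 8 (31.6%). With library totals in place of TMM, or without mitochondrial genes, ANIT against all vehicles had 4 (26.3% and 27.1% of all genes) and ConA against CIV 8 (34.2% and 36.4%). This scaling moved the median of all genes by -0.59 under ConA to 0.76 under GAL on the log2 scale, and the members higher and lower under CCl4 from 1 and 6 to 3 and 3, under GAL from 1 and 6 to 2 and 5, and under ConA from 1 and 2 to 1 and 7. In 1 fit over all 10 groups, CCl4 against CIP had 4 (20.3%) and ConA against CIV 8 (36.4%), and with all 17 vehicles ConA had 10 (68%). Without the mice numbered 1, MDA against ANIT had 2 (4.59%, main 0). Against all vehicles, with library totals, Abcc3 and Abcc4 under ConA reversed to -0.074 and -0.097, and Abcc3 under GAL to 0.61 (0.62 without mitochondrial genes). Without ANIT replicate 1, Abcb11 under ANIT against all vehicles reversed to -0.79 and was called (adjusted p = 0.049). With Ctrl mouse 1 left out as well it was -0.77 and not called (0.062). Over the ANIT mice left out in turn it ran from -0.79 to 0.41.

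Fits were repeated with 1 mouse left out at a time. These were treated mice only against Ctrl or all vehicles, saline mice only between vehicles, and mice of both groups otherwise. The count of called members moved by over 1.5 times for CCl4 against CIP (without CIP mouse 7) and ConA against CIV (without CIV mouse 7 or ConA mouse 12). It also moved for APAP against ANIT (without APAP mouse 1) and CIV against Ctrl (without CIV mouse 7). Where a saline mouse was left out, only 1 of its route remained. In these fits no other comparison moved by over 1.5 times, and no single gavage control was left out. CCl4 and ConA share 1 number with their saline controls, so no blocked fit was possible there. Settings by number range, and without the mice numbered 1, were chosen after the data were seen. With 2 saline mice per route, the injected compounds have the least precise controls.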

Other observations

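Some genes outside the 10 members varied widely among the ANIT and MDA mice. Cyp7a1 was at 0 to 0.109 CPM in the 6 MDA mice other than number 1 and at 67.5 in the library labelled MDA 1. In the ANIT group it was at 0 in the library labelled ANIT 1 and at 13.5, 10.1 and 46.8 in numbers 2, 3 and 4. Abcb1a stood at 10.4 to 27.7 CPM in the same 6 MDA mice and at 0.500 in number 1, and at 17.6, 0.556, 6.54 and 0.373 in the ANIT mice. Nr0b2 stood at 147 to 193 CPM in the 6 MDA mice and 43.9 in number 1, and at 168, 191, 259 and 30.3 in the ANIT mice. ANIT mouse 4 thus had the highest Cyp7a1 and the lowest Nr0b2, Abcb1a, Abcb11 and Slc51b of its group.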
